A study of Mus musculus with 6 samples.

Results

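The genes described here are 4 fatty acid binding proteins (Fabp5, Fabp1, Fabp2 and Fabp3), 5 long-chain acyl-CoA synthetases (Acsl1, Acsl3, Acsl4, Acsl5 and Acsl6) and Cd36, a membrane receptor that takes up fatty acids. They were found by gene symbol in the platform annotation, with every probe set of each gene. Of the 10 genes, 9 had a probe set named to them alone, out of 18193 genes in all, and together they had 19 probe sets. Acsl1 was paired with no probe set in the annotation used and was not analysed here. The group was chosen by the measured difference between the 2 sets of arrays: Fabp5 and Acsl6 had been seen among the largest falls. The differences of the members are therefore given as descriptions, with standard errors and no p-values, and nothing is supported with them.

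The data are 6 Affymetrix expression arrays of total RNA from iKAP primary cultured cells, number 3346, a culture from a mouse model of colorectal cancer. Both groups share the engineered background of that model. All cells grew in DMEM with a 5% tetracycline-free additive. One group stably carried the IRF2 open reading frame in a pLenti plasmid and the other carried GFP as the control, with 3 arrays each. Separate cultures are not stated for the 3 arrays of either group, so p-values rest on the spread among these arrays alone, and that spread may be technical. The Irf2 probe set itself read 60.5 to 65.4 with GFP and 35.2 to 37.0 on the other 3 arrays, against the direction of the label. The species of the introduced reading frame and the part of the transcript that this probe set reads are not stated, so the probe set may not read the introduced IRF2, and this value does not check the label by itself. The second group is therefore called "labelled IRF2" throughout. Values are probe set intensities on a linear scale whose array medians lay between 18.2 and 18.7, and the number of arrays limits the precision.

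Long-chain fatty acids are poorly soluble and need carriers. Cd36 helps them across the plasma membrane, fatty acid binding proteins carry them through the cytosol, and the acyl-CoA synthetases join them to coenzyme A, which traps them in the cell and commits them to oxidation, storage or membrane lipids. In the gut, Fabp1 and Fabp2 are abundant in absorptive enterocytes, whereas Fabp5 is best known from epidermis and Fabp3 from heart and skeletal muscle.

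Fabp5, Acsl6 and Fabp3 were lower on the arrays labelled IRF2, at 2.90-fold, 2.78-fold and 1.91-fold below the GFP control arrays. Acsl5 was 1.30-fold higher. Acsl3 and Acsl4 differed by less than 0.1 on the log2 scale in their brightest probe sets. Fabp1, Fabp2 and Cd36 stayed at or under the level of the array's tryptophan controls, which no mouse transcript should fill and which read between 3.69 and 6.52. A lower intensity in such bulk RNA cannot tell fewer cells that make a transcript from less transcript per cell.

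**Figure D1:**
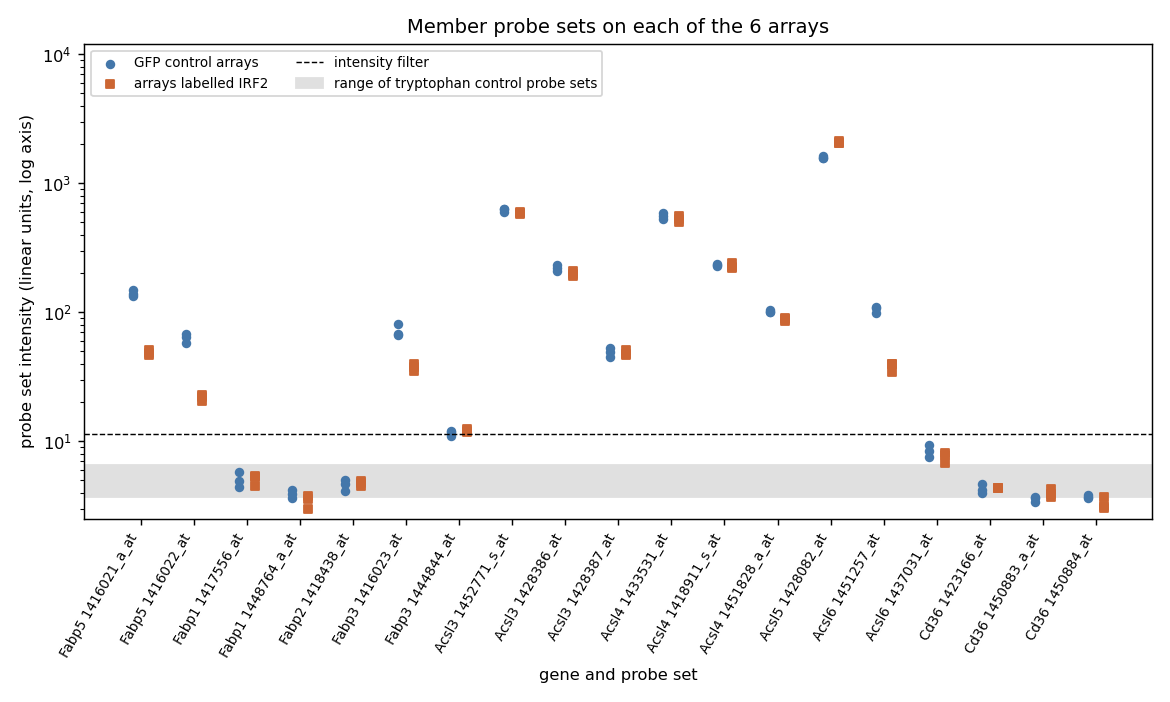
Intensity of each of the 19 member probe sets on the 3 GFP control arrays (circles) and the 3 arrays labelled IRF2 (squares), on a log axis. The dashed line is the intensity filter of 11.3 and the grey band is the range of the tryptophan controls, 3.69 to 6.52; both Fabp5 probe sets and the brighter probe sets of Fabp3 and Acsl6 lie apart between the groups.

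Fabp5 had 2 probe sets. The brighter, 1416021_a_at, read 134, 139 and 148 on the GFP control arrays and 48.0, 46.6 and 50.9 on the arrays labelled IRF2. The other, 1416022_at, read 64.5, 58.1 and 67.3 against 21.9, 20.5 and 22.8. In both, every array labelled IRF2 lay below every GFP control array, with a wide gap. The group means were 141 ± 7.22 and 48.5 ± 2.18 (SD, n = 3 each) in the first probe set and 63.3 ± 4.75 and 21.7 ± 1.15 (SD, n = 3 each) in the second. The log2 fold changes, labelled IRF2 over GFP control, were -1.53 (SE 0.06) and -1.54 (SE 0.08), so the 2 probe sets gave the same size of difference within their errors. Fabp5 ranked 2 from the bottom of the 12795 genes tested by log2 fold change, which is how it came to be chosen. RefSeq lists a pseudogene named Fabp5l2, and whether such a copy adds to these probe sets was not tested. The promoter table used has no entry for Fabp5.

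Fabp3, the muscle-type carrier, also had 2 probe sets, and they disagreed. The brighter, 1416023_at, read 80.8, 67.8 and 67.1 on the GFP control arrays and 34.97, 37.5 and 39.9 on the arrays labelled IRF2. The groups did not overlap, and the replicate 1 GFP control array was the highest of the 6. Its means were 71.9 ± 7.72 and 37.5 ± 2.49 (SD, n = 3 each), a log2 fold change of -0.94 (SE 0.08), and -0.85 without that array. The dim probe set, 1444844_at, read 11.8, 10.9 and 11.9 against 11.97, 11.9 and 12.5, close to the intensity filter of 11.3. There the groups overlapped and the log2 fold change was 0.07 (SE 0.09). In the mean of both probe sets Fabp3 came to -0.43.

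Fabp1 and Fabp2, the liver-type and intestinal carriers, were dim on all 6 arrays. The 2 probe sets of Fabp1 read 2.98 to 5.76 over the 6 arrays and the only one of Fabp2 read 4.11 to 4.96. The groups overlapped in each of these 3 probe sets. All of them lay under the filter, so they were not tested, and their differences have no interpretable size. The enterocyte markers were dim as well. Of 8 such genes with a probe set, 4 lay under the filter, among them Vil1, the microvillus protein villin, at 6.73 ± 0.406 and 5.83 ± 0.457 (SD, n = 3 each). None of the 4 above the filter passed the limma test, with 0 also at an unadjusted p under 0.05. Their summed intensity over all 8 was 101 to 106 with GFP and 104 to 107 in the group labelled IRF2.

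Acsl6, a synthetase best known from brain and testis that favours polyunsaturated fatty acids, had 2 probe sets. The brighter, 1451257_at, read 98.9, 110.2 and 107 on the GFP control arrays and 34.5, 39.6 and 39.6 on the arrays labelled IRF2. The groups lay far apart, and the lowest array of each group was its replicate 1. The means were 105 ± 5.84 and 37.9 ± 2.97 (SD, n = 3 each), with a log2 fold change of -1.48 (SE 0.07), which ranked 4 from the bottom of all genes tested. The dim probe set, 1437031_at, read 7.49, 9.28 and 8.45 against 7.78, 6.82 and 8.16. It lay under the filter and its groups overlapped. In the mean of both probe sets Acsl6 came to -0.81.

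Acsl5, a synthetase of the intestinal epithelium found at mitochondria and the endoplasmic reticulum, went the other way. Its only probe set, 1428082_at, read 1580.5, 1569.7 and 1621 on the GFP control arrays and 2113, 2058 and 2042 on the arrays labelled IRF2. Every array labelled IRF2 was above every GFP control array. The means were 1590.3 ± 26.9 and 2071 ± 37.2 (SD, n = 3 each), a log2 fold change of 0.38 (SE 0.02). It was the only member above the filter that was higher.

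Acsl3, the synthetase of the endoplasmic reticulum and of growing lipid droplets, differed little. Its brightest probe set, 1452771_s_at, read 600.3, 635 and 635 on the GFP control arrays and 576, 600.3 and 590.5 on the arrays labelled IRF2. The highest array labelled IRF2 reached the lowest GFP control array, so the groups touched. The log2 fold change was -0.08 (SE 0.03). Probe set 1428386_at read 210 to 234 against 192 to 207, without overlap, with a difference of -0.15 (SE 0.05). Probe set 1428387_at overlapped between the groups, with a difference of -0.01 (SE 0.07).

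Acsl4, which prefers arachidonic acid and is known for setting the content of oxidizable polyunsaturated lipids in membranes, had 3 probe sets above the filter. The brightest, 1433531_at, read 528, 591 and 555 on the GFP control arrays and 504, 529.9 and 558 on the arrays labelled IRF2. The groups overlapped, with a log2 fold change of -0.07 (SE 0.04). Probe set 1418911_s_at overlapped too, at -0.04 (SE 0.04). Probe set 1451828_a_at read 105, 99.5 and 101 against 87.9, 89.8 and 85.7, with no overlap, and a difference of -0.21 (SE 0.05). The 3 probe sets thus shared a sign and differed in size.

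Cd36 was not seen above background. Its 3 probe sets read 3.37 to 4.62 with GFP and 3.05 to 4.33 on the arrays labelled IRF2. The groups overlapped or touched in each of the 3 and all lay under the filter. Markers of cells that carry Cd36 in tissue were mixed in level, and none passed the limma test (0 also at an unadjusted p under 0.05). Above the filter were 4 of 6 macrophage genes, with Cd68 highest at 77.6 ± 6.85 and 77.95 ± 2.94 (SD, n = 3 each). Of 6 endothelial genes 2 were above it, Cdh5 at 12.6 ± 0.830 and 13.99 ± 2.48 and Kdr at 16.3 ± 0.415 and 17.4 ± 0.361 (SD, n = 3 each). Both lay below the array medians. Of 4 adipocyte genes 1 was above it, Retn, at 31.4 ± 0.615 and 30.4 ± 3.68 (SD, n = 3 each). Adipoq, the adipocyte hormone gene, read 4.58 ± 0.353 and 4.78 ± 0.309, and the endothelial adhesion gene Pecam1 read 5.48 ± 0.415 and 5.25 ± 0.540 (SD, n = 3 each). The macrophage list of 6 genes summed to between 179.8 and 194 with GFP and between 184 and 196 in the other group, and Ptprc, the general leukocyte gene, read 4.48 ± 0.210 and 4.96 ± 0.522 (SD, n = 3 each).

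**Figure D2:**
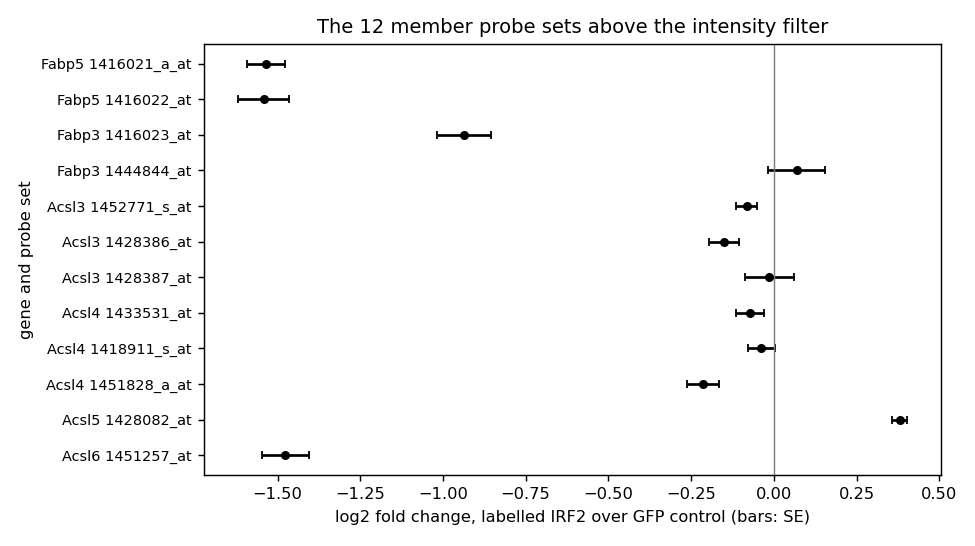
Log2 fold change, labelled IRF2 over GFP control, of the 12 member probe sets above the intensity filter, with bars of 1 SE from the fit over all probe sets. Both Fabp5 probe sets lie near -1.5, Acsl6 at -1.48 and the bright Fabp3 probe set at -0.94. The dim Fabp3 probe set lies at 0.07, those of Acsl3 and Acsl4 between -0.21 and -0.01, and Acsl5 at 0.38.

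Over all genes, the limma fit called 36.3% of the 12795 genes tested at an adjusted p under 0.05, 19.8% lower and 16.5% higher. Of the 9 genes with a probe set, 6 passed the filter, and of these 4 were called lower (Fabp5, Fabp3, Acsl6 and Acsl3), 1 higher (Acsl5) and Acsl4 not. The 2 sets of arrays were fully separated in 4 of these 6, beside 46.2% of all genes tested. The median log2 fold change of the 6 was -0.51, and that of all genes tested was -0.0007. Since the comparison itself chose the group, nothing is read from these counts. The call of Acsl3 varied with the settings, which is given as a description only. It was lost with no filter, under quantile normalization, without the intensity trend, and without GFP control replicate 2 or 3 or the labelled IRF2 replicate 1 or 3, with log2 fold changes from -0.08 to -0.06. Acsl4 gained a call without GFP control replicate 1, and also when its probe sets were averaged, at -0.11 in each.

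Counted by probe set, 12 of the 19 passed the filter, and 6 of them were called lower and 1 higher. In this fit 28.7% of 27022 probe sets were called, with 15.7% of all 27022 called lower and 13% called higher. The lower ones were both of Fabp5, the bright ones of Fabp3 and Acsl6, Acsl3 1428386_at and Acsl4 1451828_a_at. The brightest Acsl3 probe set was not called here, although it was called in the fit by gene. Groups did not overlap in 7 of the 12, beside 40.5% of all probe sets tested.

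**Figure D3:**
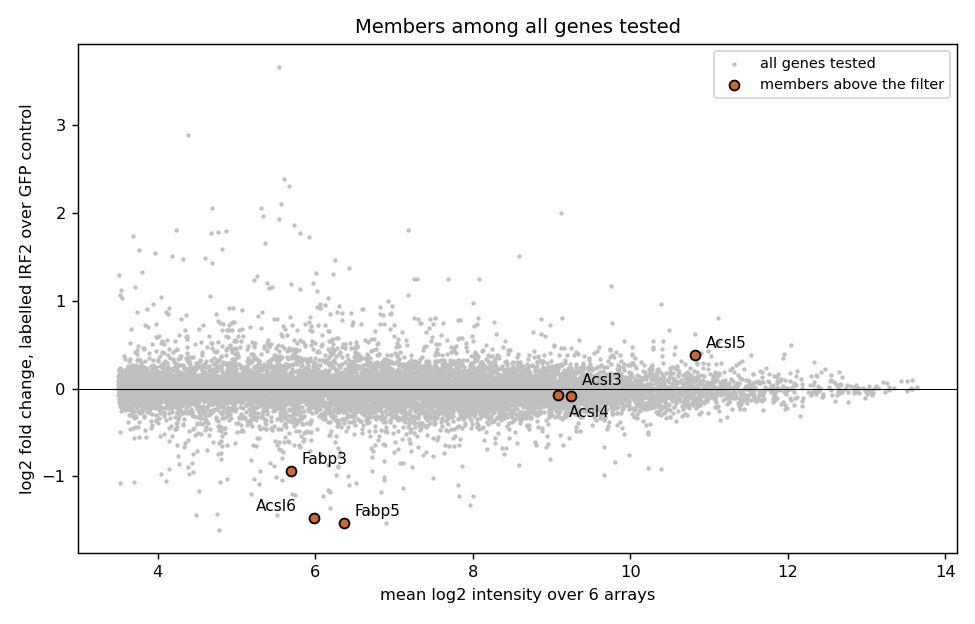
Log2 fold change against mean log2 intensity for the 12795 genes tested (grey) with the 6 members above the filter (orange). Fabp5 at -1.53 and Acsl6 at -1.48 lie at the lower edge of the cloud, Fabp3 at -0.94 inside that edge, and Acsl3, Acsl4 and Acsl5 at higher intensities and nearer to 0.

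Promoter sequence was available from RefSeq for 9 of the 10 genes, in 12 entries. The 250 bases before an annotated start are printed for the lower genes Acsl6 (its first listed start) and Fabp3 and for the higher gene Acsl5. These differed most among the members with an entry. The build is GRCm38.p6 and all 3 lie on the plus strand. Acsl6 is at chr11:54303574-54303823, Fabp3 at chr4:130308488-130308737 and Acsl5 at chr19:55253119-55253368. The RefSeq gene span of Acsl5 begins at 55251861, so its window lies inside the gene and not upstream of it. That of Acsl6 begins at 54303805, so the end of its window overlaps the gene. Letters are in lower case, with matches to the motifs named after the sequences in capitals.
Acsl6: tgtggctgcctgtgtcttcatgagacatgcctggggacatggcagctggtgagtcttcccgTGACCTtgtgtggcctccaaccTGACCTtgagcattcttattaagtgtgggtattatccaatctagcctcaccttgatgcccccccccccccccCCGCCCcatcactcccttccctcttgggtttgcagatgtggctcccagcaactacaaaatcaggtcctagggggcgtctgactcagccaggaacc
Fabp3: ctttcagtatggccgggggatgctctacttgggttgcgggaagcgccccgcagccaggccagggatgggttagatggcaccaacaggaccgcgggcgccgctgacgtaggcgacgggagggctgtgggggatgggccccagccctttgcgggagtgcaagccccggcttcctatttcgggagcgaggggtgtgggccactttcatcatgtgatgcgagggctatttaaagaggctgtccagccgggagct
Acsl5: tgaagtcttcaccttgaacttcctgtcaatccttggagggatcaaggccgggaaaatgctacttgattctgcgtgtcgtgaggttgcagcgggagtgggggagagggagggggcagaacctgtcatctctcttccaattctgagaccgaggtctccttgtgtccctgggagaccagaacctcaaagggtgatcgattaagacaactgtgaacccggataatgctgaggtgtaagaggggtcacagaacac
The motifs searched on both strands were an interferon regulatory factor element (GAAA, any 2 bases, GAAA), the nuclear receptor hexamer AGGTCA, its direct repeat with 1 base between the copies (which holds the hexamer), the GC box GGGCGG and the TATA box TATAAA. The Acsl6 window held 2 hexamers, 162 to 167 and 184 to 189 bases before the start, and 1 GC box. The windows of Fabp3 and Acsl5 held none of these letters. No member window held the interferon regulatory factor element, which 2.98% of the 32851 promoter entries hold in the same 250 bases, or the direct repeat, which 0.0335% hold. The hexamer is in 14.0% of all entries. Besides the first listed start of Acsl6 it was found for Fabp1 and Cd36, and it was absent at starts 2 and 3 of Acsl6. The GC box is in 32.7% and was found for Acsl1 (its first listed start only), Acsl3, Acsl4, Acsl6 and Cd36. The TATA box is in 12.4% and was found for Fabp1 alone. A match is a description of the letters and not of a bound site.

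The genes whose values over the 6 arrays were most like those of Fabp5 were Mpzl2, Slc17a6, Acsl6, Rgs2 and Bcat1. Likeness was the root mean square difference of log2 values after each gene's mean was subtracted, and it ran from 0.06 to 0.10 for these 5. For Acsl6 the 5 closest were Slc17a6, Rgs2, Fabp5, Mpzl2 and Bcat1, at 0.06 to 0.11. Fabp5 and Acsl6 were 0.09 apart. The measure is set mostly by the size of the difference between the groups, and Mpzl2, Slc17a6, Rgs2 and Bcat1 had log2 fold changes between -1.52 and -1.42.

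Genes next to Fabp5 and Acsl6 in chromosome order were examined for the same direction. Fabp5 lies in a cluster of binding protein genes on chromosome 3. Its neighbours Pmp2, the myelin member of the family (log2 fold change -0.12, SE 0.11, limma adjusted p = 0.441), Pag1 (0.05, SE 0.07, adjusted p = 0.614) and Zbtb10 (0.05, SE 0.08, adjusted p = 0.713) did not pass, and Fabp9 and the adipocyte carrier Fabp4 were under the filter. Zfp704 rose by 0.20 (SE 0.07, adjusted p = 0.0276), a call that was lost without GFP control replicate 1 or 2 or the labelled IRF2 replicate 1 or 3, with 0.17 to 0.19. Beyond Acsl6 on chromosome 11, the closest gene Meikin was under the filter. Fnip1, a folliculin-interacting protein, fell by 0.35 (SE 0.05, adjusted p = 3.85e-05) and Rapgef6, an activator of Rap GTPases, fell by 0.21 (SE 0.04, adjusted p = 0.000294). On its other side the cytokine gene Csf2 differed by 0.10 (SE 0.08, adjusted p = 0.321), and Il3 and 4933405E24Rik were under the filter.

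**Figure D4:**
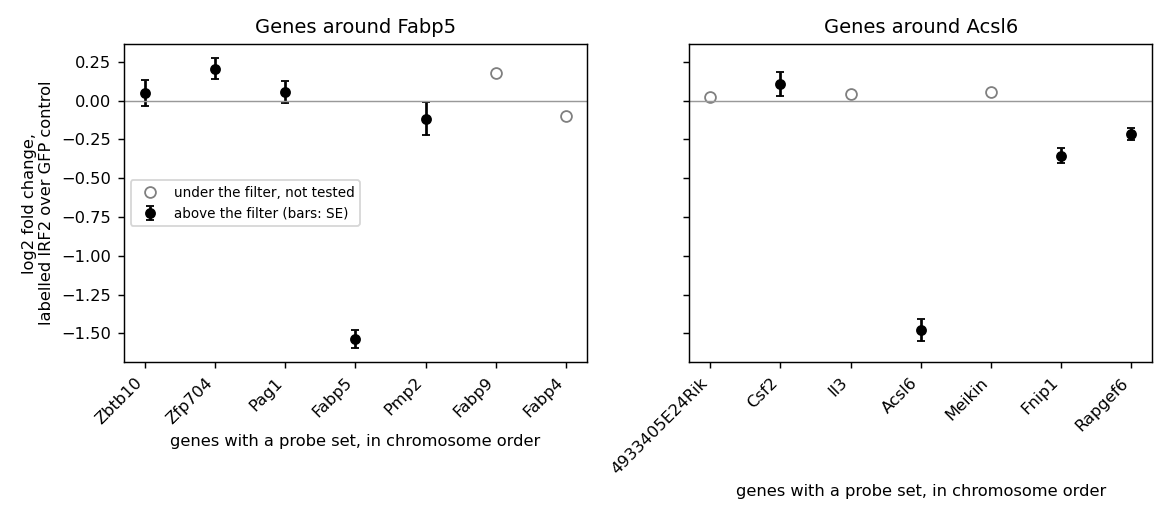
Log2 fold change, labelled IRF2 over GFP control, of the 3 genes with a probe set on each side of Fabp5 (left) and Acsl6 (right), in chromosome order and not to scale. Bars are 1 SE from the limma fit and open circles are genes under the filter. Fabp5 at -1.53 and Acsl6 at -1.48 lie below every neighbour shown, the lowest of which is Fnip1 at -0.35. Both were chosen for their large falls, so nothing is read from that distance.

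Around the members, other fatty acid genes changed in both directions and mostly by little. Of 174 listed genes with a probe set, 129 were tested, 28 rose and 20 fell. That is 37.2% of those tested, beside 36.3% of all genes, and their median log2 fold change was 0.01. Among other lipid-binding proteins, the retinoic acid carrier Crabp2 rose from 143 ± 3.51 to 201 ± 10.02 (SD, n = 3 each). Its log2 fold change was 0.49 (SE 0.04, limma adjusted p = 5.77e-07). The brain carrier Fabp7 was bright and fell from 1803 ± 19.1 to 1691 ± 21.8 (SD, n = 3 each), a log2 fold change of -0.09 (SE 0.02). The limma adjusted p of Fabp7 was 0.00236, and 0.0553 without the intensity trend. Only 3 of the 10 in that list were above the filter. Of 8 other acyl-CoA synthetases and transporters tested, the ketone-using enzyme Aacs (0.20, SE 0.04) and Acsbg1 (0.18, SE 0.04) rose and the mitochondrial malonyl-CoA synthetase Acsf3 fell (-0.45, SE 0.09, adjusted p = 0.000731). Slc27a4, an intestinal fatty acid transporter, differed by -0.04 (SE 0.03, adjusted p = 0.424).

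Among genes that use acyl-CoA, 1 of 14 acyl-CoA-binding proteins and thioesterases rose and 2 fell, and the thioesterase Acot9 fell most (-0.26, SE 0.02). The one that rose, Acot2 (0.17, SE 0.06, adjusted p = 0.0391), lost its call with no filter (adjusted p = 0.0507) and without GFP control replicate 1 or 3 or the labelled IRF2 replicate 1 or 2 (0.13 to 0.16). Of 21 beta-oxidation genes, 6 rose, with Acads at 0.27 (SE 0.05) and Decr1 at 0.20 (SE 0.04), and 3 fell, with Hadhb, the thiolase subunit of the trifunctional protein, at -0.27 (SE 0.03, adjusted p = 1.57e-06). The carnitine transferase Cpt1a differed by -0.04 (SE 0.04, adjusted p = 0.601). Of 9 peroxisomal genes, 3 rose and 0 fell in limma (0 also at an unadjusted p under 0.05), and Decr2 was the highest of them at 0.27 (SE 0.07). The other two were Pecr (0.25, SE 0.09), a call lost without GFP control replicate 1 or 2 or the labelled IRF2 replicate 2 or 3 (0.15 to 0.26), and Hsd17b4 (0.09, SE 0.03), lost without GFP control replicate 1 or 2 or the labelled IRF2 replicate 1 or 2 (0.07 to 0.09). Both calls were also lost with no filter, without the intensity trend and when probe sets were averaged, where Pecr came to 0.11 and Hsd17b4 to 0.07, and that of Pecr under quantile normalization (adjusted p = 0.0639). In glycerolipid synthesis and lipid droplets, 2 of 24 rose, with the lipase Pnpla2 at 0.29 (SE 0.04), and 4 fell. There Agpat5, which acylates lysophosphatidic acid, fell from 1199 ± 12.02 to 669.7 ± 11.8 (SD, n = 3 each; -0.84, SE 0.02, adjusted p = 2.59e-12; -0.63 in its second probe set and -0.54 over all 3 averaged) and the droplet coat gene Plin2 by 0.17 (SE 0.02).

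Of 16 elongation and desaturation genes, 2 rose and 5 fell; the very-long-chain elongase Elovl4 fell by 0.77 (SE 0.06, adjusted p = 8.36e-08) and the desaturase Scd2 rose by 0.18 (SE 0.02). Of 16 arachidonate genes, 6 rose, with the phospholipase Pla2g4a at 0.35 (SE 0.03), and the cyclooxygenase Ptgs2 alone fell, by 0.52 (SE 0.04, adjusted p = 4.85e-08). Lpcat3, which places arachidonate made active by Acsl4 into phospholipids, differed by -0.01 (SE 0.02, adjusted p = 0.709). Among 11 PPAR receptors, partners and coactivators, 2 rose and 3 fell, and the coactivator Ncoa1 fell most (-0.31, SE 0.07). Fatty acids carried by Fabp5 can activate Ppard, which differed by 0.06 (SE 0.07, adjusted p = 0.620), and Pparg by -0.0035 (SE 0.06, adjusted p = 0.973). Of 10 PPAR-induced genes, Angptl4 (0.45, SE 0.03, adjusted p = 4.37e-08; 0.29 in the mean of its probe sets), Pdk4 (0.33, SE 0.10) and Vnn1 (0.16, SE 0.05) rose and Plin2 fell. The calls of Pdk4 and Vnn1 were each lost without some arrays: GFP control replicate 2 or the labelled IRF2 replicate 1 or 3 for Pdk4 (0.24 to 0.32), and GFP control replicate 1 or the labelled IRF2 replicate 1 or 2 for Vnn1 (0.12 to 0.15). Vnn1 also lost its call when its probe sets were averaged (0.19, adjusted p = 0.0568). Pdk4 came to 0.15 with 16 added before the log.

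**Figure D5:**
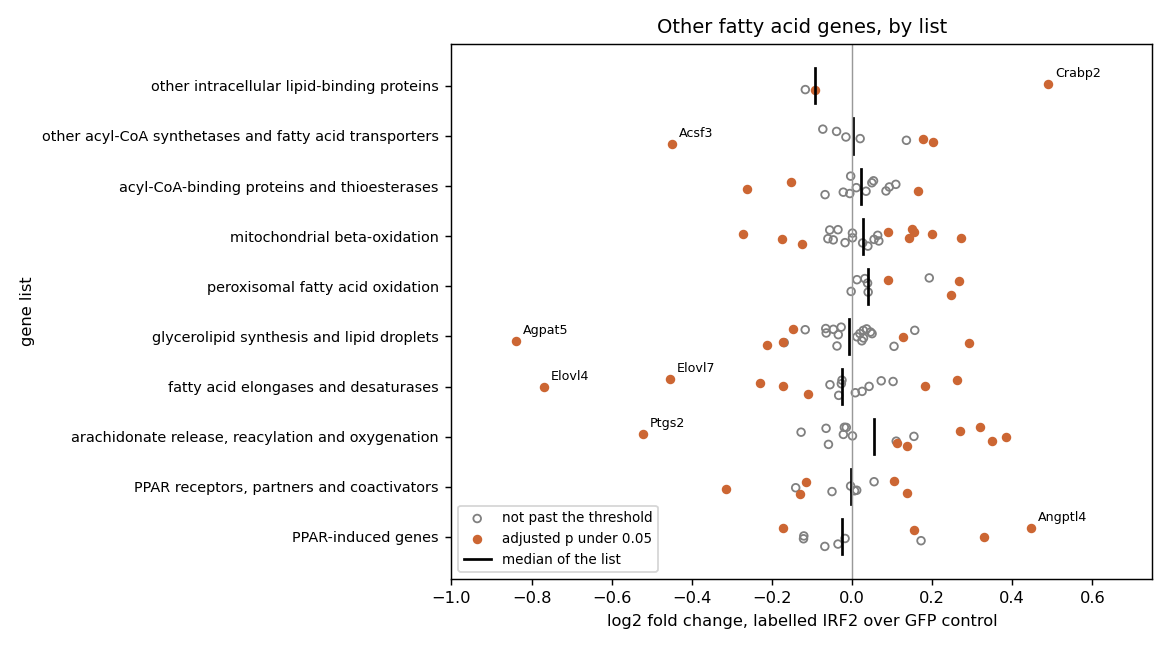
Log2 fold change of each tested gene of the 10 fatty acid gene lists; filled points passed an adjusted p of 0.05 in the limma fit over all genes, open points did not, and bars are list medians. The medians lie between -0.09 and 0.06, and Agpat5 at -0.84 and Elovl4 at -0.77 are the lowest points.

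Of 5 squamous epithelial markers with a probe set, 4 were tested and 2 of these fell, beside 19.8% of all genes tested. The summed intensity over the 5 was 306 to 336 with GFP and 207 to 231 in the group labelled IRF2. The keratin genes Krt14 (-0.71, SE 0.06, adjusted p = 1.59e-07) and Krt6a (-0.52, SE 0.07, adjusted p = 3.80e-05) fell and carried that sum. Krt5 (0.03, SE 0.08, adjusted p = 0.841) and Krt15 (-0.05, SE 0.09, adjusted p = 0.721) did not pass, and Trp63, which defines that lineage, was under the filter at 9.11 ± 0.467 and 9.17 ± 0.254 (SD, n = 3 each). Their part in the Fabp5 difference was not tested. The muscle list summed to between 867 and 879.7 with GFP and between 1014 and 1059.9 in the other group, a difference carried by Tnnt2. Of its 4 tested genes Tnnt2 alone passed, at 0.29 (SE 0.03), while Ckm differed by -0.04 (SE 0.08, adjusted p = 0.757). Myh6 was under the filter at 3.91 ± 0.0534 and 3.60 ± 0.166 (SD, n = 3 each). The epithelial list had 6 of 6 genes above the filter, and its members differed in direction. The adhesion genes Epcam (48.2 ± 1.27 and 27.8 ± 5.31, SD, n = 3 each; -0.81, SE 0.11, adjusted p = 3.10e-05) and Cdh1 (214 ± 2.26 and 127 ± 2.80, SD, n = 3 each; -0.75, SE 0.04, adjusted p = 1.46e-09) fell. The keratin genes Krt8 (0.50, SE 0.02, adjusted p = 7.44e-11) and Krt18 (0.08, SE 0.02, adjusted p = 0.00250) rose, and Krt19 and Cldn7 did not pass. Of 6 fibroblast genes 4 were tested and 1 rose, beside 16.5% of all genes tested. That gene, Pdgfra, went from 28.6 ± 4.35 to 46.4 ± 4.94 (SD, n = 3 each; 0.70, SE 0.10, limma adjusted p = 7.90e-05). Col1a2, Dcn and Col3a1 did not pass. The fibroblast list summed to between 84.5 and 92.8 with GFP and between 103 and 112 in the other group. The part of these markers in the members' differences was not tested.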

How the data were processed

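The authors' deposited values are linear probe set intensities from 6 arrays, 45101 probe sets each. MAS5 appears among the tools of the submitters' processing notes, without a version; how arrays were scaled is not stated there. No further scaling was applied.

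Leaving out array controls, the platform annotation gave 1 gene symbol to 34945 of 45037 probe sets, several to 932 and none to 9160, and only the first were named; 34741 of these were found in the RefSeq gene table. The brightest probe set stood for each gene. Genes no brighter on average than the 40th percentile of probe sets (intensity 11.3) were left out. The models used limma 3.58.1 (R 4.3.3) on log2 intensities (lmFit, eBayes with an intensity trend; group as the only term; 4 residual degrees of freedom), once over genes and once over probe sets. Tests were two-sided, with Benjamini-Hochberg adjustment over all features of each fit. SEs of probe sets that stand for a gene come from the gene fit in the text. The fit was tested on simulated data.

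The members, gene lists and motifs were chosen with earlier results of these data known. Named genes were the members, the 5 closest profiles and 3 neighbours on each side of Fabp5 and Acsl6, and up to 4 genes with the smallest p per list; others describe a list. Not every gene the rule takes is reported. Levels of different probe sets were set side by side only to choose the brightest, to filter and to describe lists. No difference in level between genes was tested.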

Additional observations from a re-analysis of the deposited data

How the results depend on the processing

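The 14 alternatives were no filter, a stricter filter (60th percentile), 16 added before the log, quantile normalization, no intensity trend, robust variances, the mean of probe sets, the replicate number as a block, and leaving out each array in turn. Each count of genes called stayed within 1.5 times its value. Over all genes, 1772 to 2302 were higher and 2015 to 2537 lower. Of the members, 1 was higher in every alternative and 3 to 5 were lower. The members were chosen by this same comparison, so their counts are a description and nothing is read from them. Of the gene values recomputed, 564 stayed on the same side of the threshold, 49 lost their call, 2 gained one and 0 changed sign; Acsl4, with no call to lose, is counted among these. Without 1 array Fabp5 ran from -1.57 to -1.50, Acsl6 from -1.52 to -1.41 and Acsl5 from 0.37 to 0.39. With 16 added, Fabp5 came to -1.28, Acsl6 to -1.17 and Fabp3 to -0.71.

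Deviations of same-numbered arrays from their group means were nearly uncorrelated (0.06, -0.06 and 0.0031). With 3 arrays per group these values cannot show whether the numbers pair the arrays, so pairing is not known. With the replicate block, 2141 genes were higher and 2537 lower, against 2111 and 2531, and the members called by gene were 1 higher and 4 lower, as without it; by probe set, 7 were lower in place of 6. Hsd17b4 lost its call with the block (adjusted p = 0.0596), and no other gene value recomputed did. Dim probe sets limit what can be said of Fabp1, Fabp2 and Cd36.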
